A study of Mus musculus with 8 samples.

Results

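The genes described here are the cytosolic ribosomal protein genes, 56 of the 19938 genes measured in mouse liver. They were chosen by symbol: Rpl or Rps followed by a number, with Rplp0, Rplp1, Rplp2 and Rpsa, leaving out pseudogenes, S6 kinases and paralogs whose symbol ends in l. By symbol, 33 encode proteins of the large subunit and 21 proteins of the small subunit. The other 2 met the rule by spelling only: Rps19bp1 encodes a protein that binds ribosomal protein S19, and Rps23rg1 is a retrogene of Rps23. Each gene was represented by its brightest probe set that names no other gene, so the levels given below helped to choose what was measured. The group was proposed after Rps12 and Rpl23 had been seen among the genes with the smallest p-values, and its differences between genotypes are therefore a description and not independent support for a response. A further 19 ribosomal protein symbols, among them Rpl3, Rpl11, Rpl22l1, Rps16 and Rps27, occur only on probe sets shared with other genes and were not analysed here.

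Livers came from adult male mice labelled Rictor floxed (RKO), from a cross of an albumin-promoter Cre with Rictor LoxP/LoxP alleles, and from adult male controls labelled wild type, with 4 mice in each group. The labels do not say whether the controls carried the floxed allele or Cre. All 8 mice were fasted for 16 h and then had free access to food for 3 h, so no fasted and no continuously fed group was compared. Rictor is the subunit that defines mTOR complex 2, and the albumin promoter drives Cre in hepatocytes, while the RNA came from whole liver with its other cell types. Each mouse gave 1 Affymetrix Mouse Gene 1.0 ST array, and the arrays are called control 1 to 4 and knockout 1 to 4 after the replicate numbers in their labels.

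A ribosome joins a small subunit, which reads the mRNA, to a large subunit, which forms the peptide bonds, and each is built from ribosomal RNA and a set of mostly single-copy proteins. The mRNAs of these proteins are among the most abundant in liver, and most begin with a cytosine followed by a run of pyrimidines, the 5' terminal oligopyrimidine (TOP) tract. Feeding is known to raise the translation of TOP mRNAs through mTOR complex 1, a control on translation that mRNA levels do not record.

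All values are RMA signals on a log2 scale, so a difference of 1 is a doubling, and each difference is the knockout-labelled mean minus the control mean. The median signal per array ranged from 6.90 to 7.03, and pairs of arrays correlated at 0.991 to 0.996. The Rictor probe set read 9.40 ± 0.19 in controls and 9.45 ± 0.22 in knockout-labelled livers (SD, n = 4; exact two-sided permutation p = 0.8286). Whether its probes lie in the deleted part of the gene is unknown here, so this probe set is no check of the genotypes, and the arrays are called knockout-labelled for that reason. Knockout 1 received the lowest weight when limma estimated the quality of each array, 0.467, against 0.672 to 2.31 for the others. Hepatocyte markers (8 of 8 measured, among them Alb and Ttr) averaged 13.55 to 13.59 in controls and 13.56 to 13.62 in knockout-labelled arrays.

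Most ribosomal protein mRNAs had a higher mean in the knockout-labelled livers. A higher mean was seen for 46 of the 56 genes, against 43.1% of all genes, and the median difference was 0.27 against -0.02 over all genes. The middle 50% of the genes lay between differences of 0.10 and 0.50. The 8 largest differences were those of Rps12, Rpl5, Rps28, Rpl7, Rps21, Rpl23, Rps14 and Rpl13. Each of these exceeded 1.5-fold, and the share of all genes past that fold was not counted. No gene, ribosomal or other, passed a Benjamini-Hochberg adjusted p of 0.05 in limma with equal array weights (0% of 19938 genes, lowest adjusted p 0.140), so no rise of any single gene is established by that fit. At an unadjusted limma p under 0.05, 30 of the 56 were higher, against 3.84% of all genes, and 1 (Rps23rg1) was lower, against 6.61%. For 14 of the 56 all 4 knockout-labelled arrays lay above all 4 controls, against 1.81% of all genes, and for Rps23rg1 alone all lay below, against 2.61%. These genes share arrays and vary together, and the counts are not those of independent tests. In whole liver, a change in the number of cells of a type and a change in RNA per cell cannot be told apart.

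**Figure D1:**
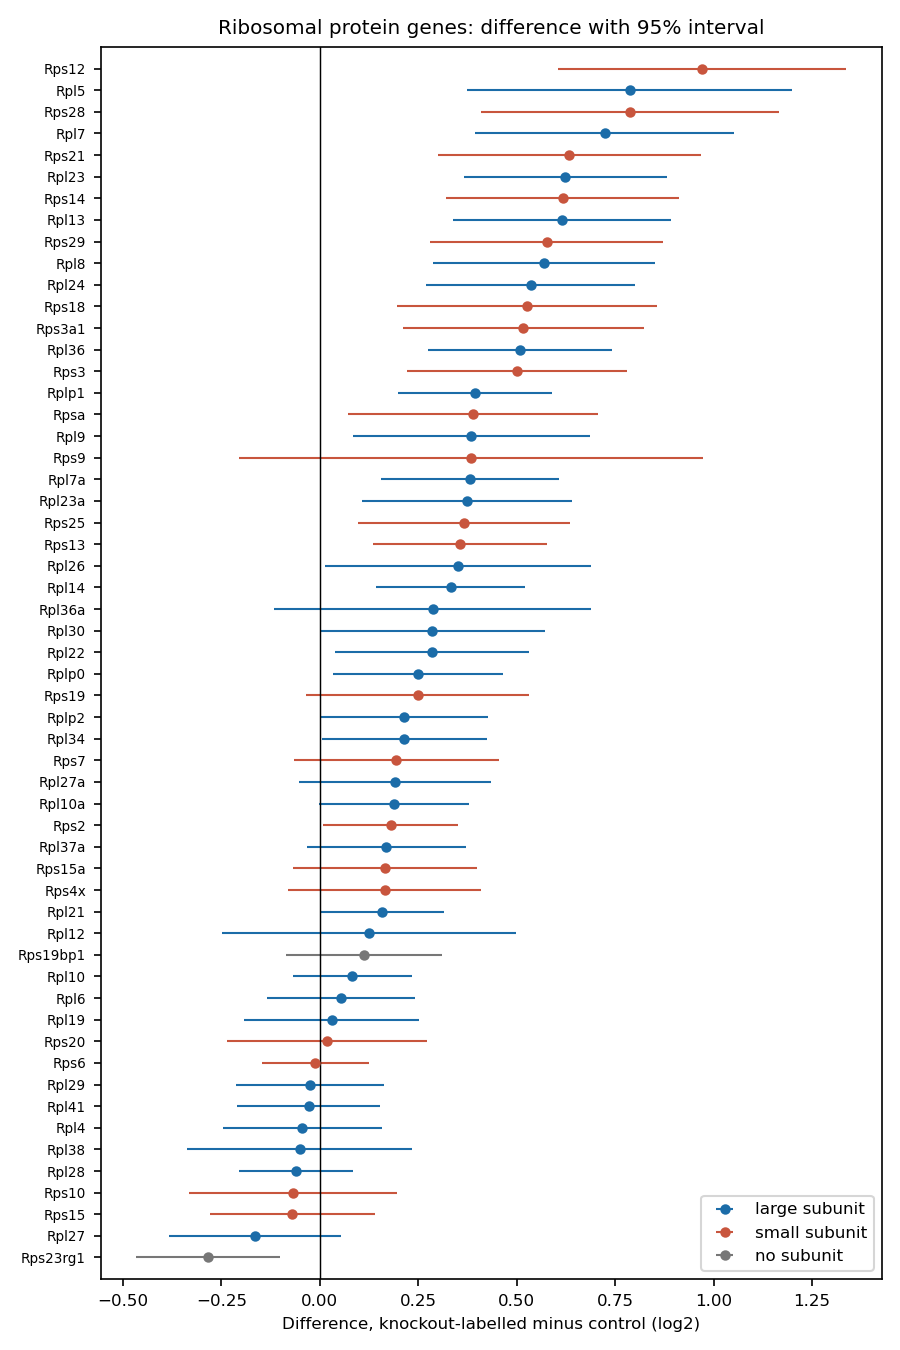
Difference of each of the 56 genes between genotypes (knockout-labelled mean minus control mean, log2 scale, horizontal axis) with its 95% confidence interval from limma, ordered by size and coloured by subunit. Differences run from -0.28 for Rps23rg1 to 0.97 for Rps12, and 46 of the 56 points lie above 0.

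The 4 controls were spread more widely than the 4 knockout-labelled livers, and in a shared order. Averaged over the 56 genes, controls 1 to 4 read 10.97, 10.74, 10.66 and 10.51, and knockouts 1 to 4 read 10.89, 11.01, 11.07 and 11.05. The means were 10.72 ± 0.19 and 11.01 ± 0.08 (SD, n = 4), and control 1 lay above knockout 1, so the averages of the groups overlapped by that pair of arrays. Control 1 was the highest control for 52 of the 56 genes, and control 4 was the lowest control for 45. Control 4 was the lowest of all 8 arrays for 40 genes. Knockout 1 was the lowest knockout-labelled array for 31 genes, and control 1 exceeded it for 37. With both arrays numbered 1 set aside, a choice made after seeing the data, every remaining knockout-labelled array exceeded every remaining control for 42 of the 56 genes, against 9.15% of all genes. The control SD was larger than the knockout-labelled SD for 43 genes, with medians of 0.222 and 0.115, whereas over all genes the medians were 0.117 and 0.132.

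**Figure D2:**
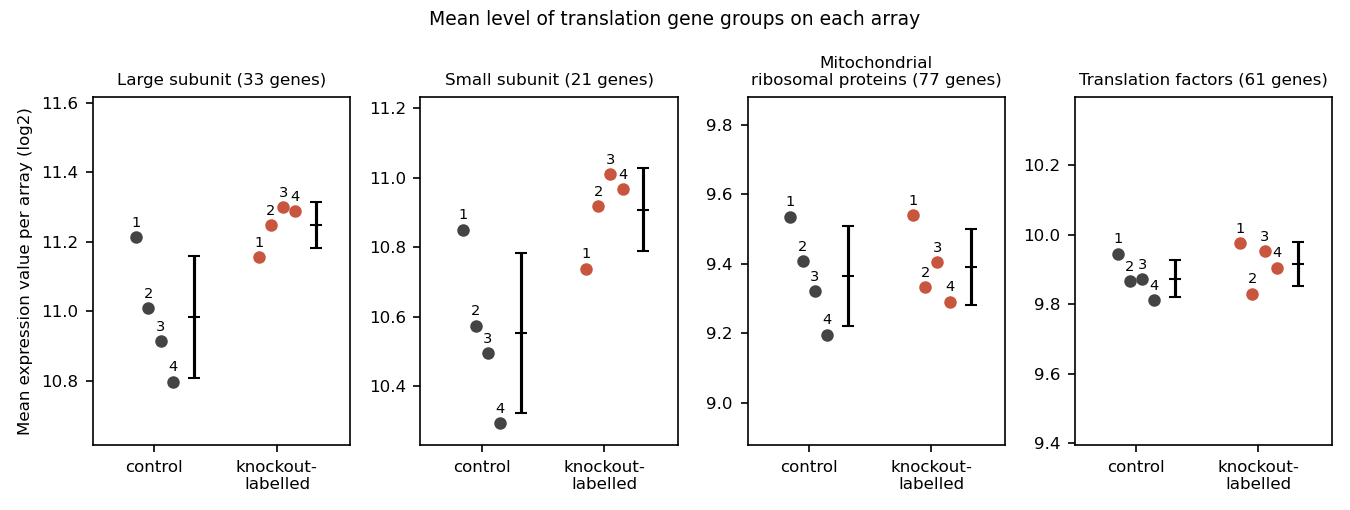
Mean log2 level per array of the large and small subunit genes, for the 4 controls and the 4 knockout-labelled livers. Mitochondrial ribosomal protein genes and genes with translation factor symbols (Eif or Eef) are shown for comparison. Each numbered point is 1 array and the bars show the group mean ± SD. The vertical ranges differ in position between panels but not in height. Control 1 and knockout 1 lie at nearly the same height for the cytosolic genes, and control 4 is lowest.

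Both subunits had higher means on the knockout-labelled arrays. Large subunit genes averaged 11.21, 11.01, 10.91 and 10.80 in controls 1 to 4 and 11.16, 11.25, 11.30 and 11.29 in knockouts 1 to 4. Of these genes, 27 of 33 had a higher knockout-labelled mean, against 43.1% of all genes (median difference 0.25). For 9 (27.3%) the knockout-labelled arrays lay above the controls with no overlap, against 1.81% of all genes. Small subunit genes averaged 10.85, 10.57, 10.50 and 10.29 in the controls and 10.74, 10.92, 11.01 and 10.97 in the knockout-labelled livers. A higher mean was seen for 18 of 21 (median difference 0.37), and 5 (23.8%) had no overlap in that direction, a share close to that of the large subunit. In both sets control 1 exceeded knockout 1. The medians of the subunits differed by 0.12, a gap that was 0.074 without control 4 and 0.070 when each gene was read by its dimmest probe set, and whether the subunits responded to different degrees was not tested.

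Among large subunit genes, Rpl5, whose product carries 5S ribosomal RNA into the subunit, had the largest difference and was named after its values were seen. Its level was 11.21, 10.83, 10.59 and 10.46 in the controls and 11.02, 11.55, 11.84 and 11.82 in the knockout-labelled livers. Control 1 stood above knockout 1, so the groups overlapped, while the other 3 knockout-labelled arrays stood above every control (difference 0.79, SE 0.19, 1.73-fold, limma adjusted p = 0.162). Rpl7 read 10.41, 9.97, 9.92 and 9.67 against 10.45, 10.63, 10.89 and 10.89. All its knockout-labelled arrays were above all its controls, but knockout 1 by only 0.043 over control 1 (difference 0.72, SE 0.15, 1.65-fold, limma adjusted p = 0.140).

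Rpl23, a component of the subunit interface whose free form binds Mdm2, read 11.81, 11.50, 11.61 and 11.44 in controls and 11.87, 12.26, 12.36 and 12.36 in knockout-labelled livers. The groups did not overlap, with a margin of 0.058 between control 1 and knockout 1, and the difference was 0.62 (SE 0.12, 1.54-fold, limma adjusted p = 0.140). Rpl13 showed the same arrangement at 9.97, 9.73, 9.85 and 9.45 against 10.11, 10.38, 10.51 and 10.47, a difference of 0.62 (SE 0.13). Rpl36 had the widest gap between groups of any of the 56 genes, 0.164, with levels of 11.42, 11.22, 11.28 and 10.95 against 11.59, 11.88, 11.79 and 11.65. Its difference was 0.51 (SE 0.11, limma adjusted p = 0.141). Rpl8, a protein close to the peptidyl transferase centre, had the narrowest gap, 0.0089, with levels of 10.96, 10.68, 10.55 and 10.40 against 10.97, 11.17, 11.42 and 11.31.

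The stalk proteins of the large subunit, which recruit translation factors, had both bright and dim probe sets. Rplp0, often used as a reference gene, read 13.00, 12.81, 12.73 and 12.46 in controls and 12.91, 13.01, 13.07 and 13.01 in knockout-labelled livers. Its difference of 0.25 (SE 0.10, 1.19-fold, limma adjusted p = 0.388; exact two-sided permutation p = 0.0571) came with overlap, since control 1 nearly matched the highest arrays. Rplp2, the dimmest of the 56 genes, read 7.15, 6.81, 6.91 and 7.10 against 7.04, 7.21, 7.33 and 7.24. The difference was 0.21 (SE 0.10, limma adjusted p = 0.450) and its order among the controls differed from that of most members, with control 2 lowest. Rplp1, named after its values were seen, had a difference of 0.39 (SE 0.09) without overlap.

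Rpl14, another dim gene, read 7.29, 7.31, 7.09 and 7.23 in controls and 7.54, 7.45, 7.72 and 7.53 in knockout-labelled livers. Of the 14 genes with every knockout-labelled array above every control, it was the only one for which control 1 was not the control nearest to the knockout-labelled arrays (difference 0.33, SE 0.09, limma adjusted p = 0.208). Rpl22, whose paralog Rpl22l1 was not measured alone, read 9.19, 8.74, 8.69 and 8.81 against 9.16, 9.12, 9.20 and 9.08. Its knockout-labelled values kept within an SD of 0.05, while control 1 stood apart above the other controls, and the groups overlapped through it (difference 0.29, SE 0.11).

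Among small subunit genes, Rps12, a protein of the subunit head, had the largest difference of all 56. Its level was 9.60, 9.02, 9.22 and 8.85 in the controls and 9.74, 10.20, 10.37 and 10.28 in the knockout-labelled livers. The groups did not overlap, and knockout 1 was the lowest of its group, 0.133 above control 1. The difference was 0.97 (SE 0.17, 95% interval 0.60 to 1.34, 1.96-fold), with a limma adjusted p of 0.140 and an exact two-sided permutation p of 0.0286, the smallest that 4 against 4 arrays allow. Rps28 read 10.77, 10.35, 10.25 and 10.02 against 10.66, 11.19, 11.39 and 11.31. Here control 1 exceeded knockout 1, and the groups overlapped despite a difference of 0.79 (SE 0.17, limma adjusted p = 0.143). Rps14, a platform protein, had tight controls at 10.10, 9.95, 10.09 and 9.93 and more scattered knockout-labelled values at 10.18, 10.74, 10.87 and 10.74. It had a difference of 0.62 (SE 0.14) and an SD of 0.09 in controls against 0.31, the reverse of the usual order of spread.

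**Figure D3:**
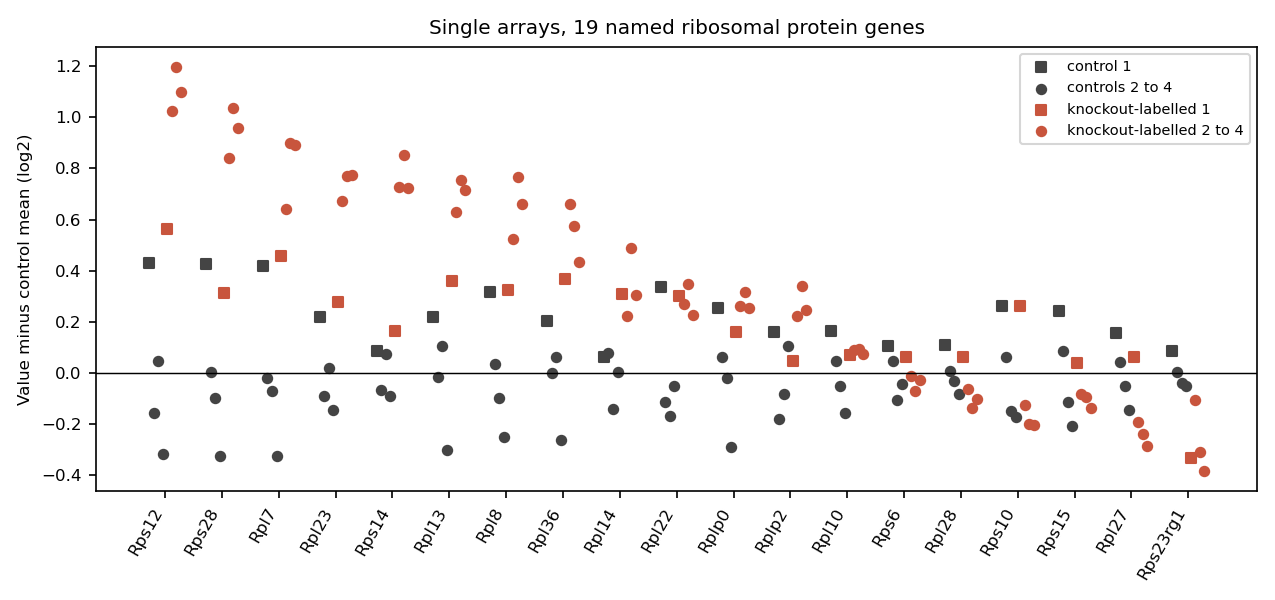
Value of each array minus the control mean (log2, vertical axis) for 19 single genes ordered by difference; each point is 1 array, grey for controls and red for knockout-labelled livers, with squares for the arrays numbered 1. Knockout 1 lies nearest the controls for Rps12 and Rpl23, and the groups mix around 0 for Rps6 and Rpl28.

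Not every ribosomal protein gene with a bright probe set had a higher mean. Rps6, the small subunit protein phosphorylated by S6 kinase and the brightest of the 56, read 13.75, 13.69, 13.54 and 13.60 in controls and 13.71, 13.63, 13.57 and 13.62 in knockout-labelled livers. The groups overlapped throughout, and the difference was -0.01 with a 95% interval of -0.15 to 0.12, an interval that does not reach the difference of Rps12. Rpl10, a late-joining protein of the large subunit, read 13.67, 13.56, 13.46 and 13.35 against 13.58, 13.60, 13.60 and 13.58. Its 4 knockout-labelled values lay inside the range of the controls (difference 0.08, SE 0.07). Rpl28 read 13.50, 13.41, 13.36 and 13.31 against 13.46, 13.33, 13.26 and 13.29, also with overlap (difference -0.06, SE 0.07).

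Of the genes with lower knockout-labelled means, Rpl27 read 11.40, 11.29, 11.20 and 11.11 in controls and 11.31, 11.06, 11.01 and 10.96 in knockout-labelled livers. Only knockout 1 lay inside the control range, and knockouts 2 to 4 lay below every control. The difference was -0.16 (SE 0.10, 95% interval -0.38 to 0.05, limma adjusted p = 0.588). Rps15 had a difference of -0.07 (SE 0.10) and Rps10 a difference of -0.07 (SE 0.12), both with overlapping groups. The retrogene Rps23rg1 read 7.61, 7.53, 7.49 and 7.48 against 7.19, 7.42, 7.22 and 7.15. Every knockout-labelled array was below every control, an arrangement seen for no other of the 56 genes (difference -0.28, SE 0.08, limma adjusted p = 0.252; exact two-sided permutation p = 0.0286).

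The remaining genes are given by range. Differences of 0.50 to 0.63 were seen for Rps21, Rps29, Rpl24, Rps18, Rps3a1 and Rps3. Their limma adjusted p ran from 0.143 to 0.241. Differences from 0.25 to 0.39 were seen for Rpsa, Rpl9, Rps9, Rpl7a, Rpl23a, Rps25, Rps13, Rpl26, Rpl36a, Rpl30 and Rps19. Among these Rps9 was the most scattered, with an SD of 0.58 in controls and 0.47 in knockout-labelled livers. Differences from 0.11 to 0.21 were seen for Rpl34, Rps7, Rpl27a, Rpl10a, Rps2, Rpl37a, Rps15a, Rps4x, Rpl21, Rpl12 and Rps19bp1. Rpl6, Rpl19, Rps20, Rpl29, Rpl41, Rpl4 and Rpl38 lay between -0.05 and 0.05. In all, 12 of the 56 genes differed by less than 0.1 in either direction.

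Within the group, the size of the difference varied with the brightness of the probe set. Brightness depends on the probes as well as on the mRNA, so the classes are of signal and not of amount. The 13 genes at a mean level of 12 or more had a median difference of 0.03, and 7 of them were higher. The 29 genes from 10 to 12 had a median of 0.38, with 26 higher, and the 11 genes from 8 to 10 had a median of 0.29, with all 11 higher. The 3 genes from 6 to 8 (Rplp2, Rpl14 and Rps23rg1) had differences of 0.21, 0.33 and -0.28. Over all genes, the 619 at 12 or more had a median of -0.01 and the 2551 from 10 to 12 a median of -0.04. Across genes, Spearman's rho between level and difference was -0.362 over the 56, -0.588 over the 21 small subunit genes and -0.368 over the 33 large subunit genes, against -0.0257 over all genes. These points share the same 8 arrays. The brightest of the 56 genes had a mean level of 13.64, and the highest value on the arrays was 14.41. At 12 or more, differences ran from -0.07 to 0.39 among the 13 genes and from -0.62 to 0.86 over all genes. Compression of bright signals was not tested.

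**Figure D4:**
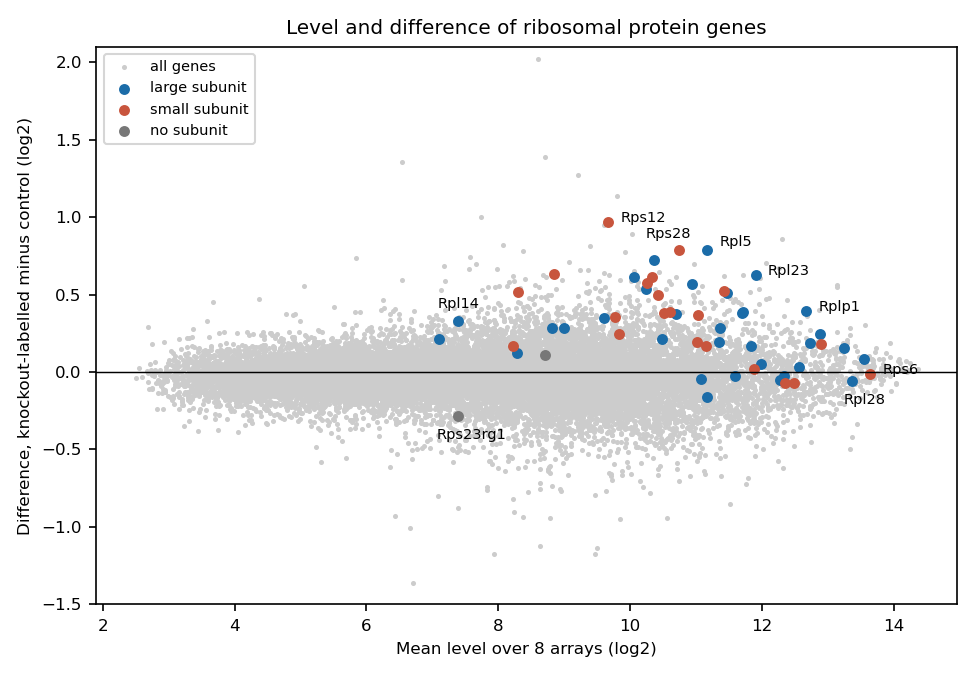
Difference between genotypes (knockout-labelled mean minus control mean, log2) against mean log2 level over the 8 arrays for the 56 genes, coloured by subunit, over all genes in grey. Ribosomal protein genes above a level of 12 lie mostly near 0, with a median of 0.03, and the larger differences lie between 8 and 12.

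The array carries several probe sets for many of these genes, 211 in all. Ribosomal protein genes are known for their many processed copies across the genome. Transcripts of the gene and of near-identical copies cannot be told apart by such probe sets, which leaves the source of the signal uncertain for every gene with copies. For 38 genes with more than 1 probe set, the sign of the difference was the same in all of the gene's probe sets for 36. Rps12 had 14 probe sets with differences from 0.75 to 0.97, and Rpl23a had 13 from 0.37 to 0.56. Signs differed for Rpl27, from -0.16 to 0.05 over 4 probe sets, and for Rps6, from -0.02 to 0.02 over 8. Rps15 had the widest spread, from -0.31 to -0.07 over 3 probe sets. The median spread within a gene was 0.059. These probe sets share probes or sequence and are not replicates, and 19 of the 211 held exactly the values of another.

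**Figure D5:**
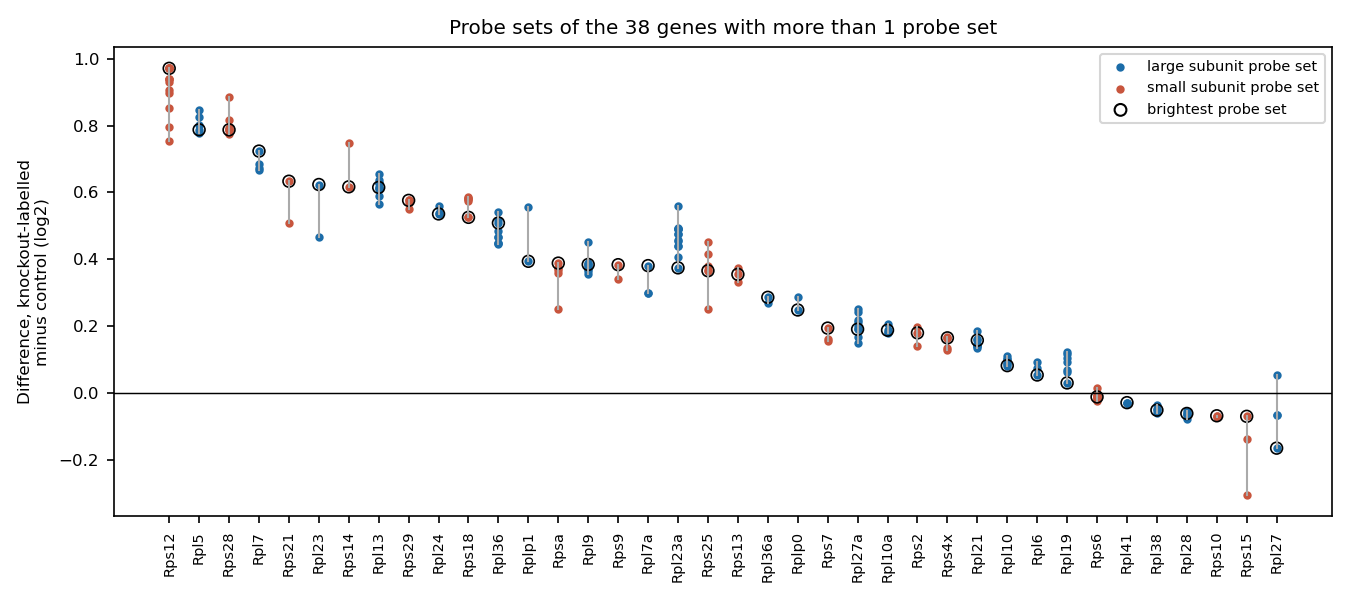
Difference between genotypes (log2) of every probe set of each gene with more than 1, genes ordered by difference; each point is 1 probe set and circles mark the brightest one, which stands for the gene. Points of a gene lie close together, with a median spread of 0.059, and only Rpl27 and Rps6 cross 0.

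Annotated starts were set beside these differences because TOP mRNAs are defined by their first bases. Sequences came from RefSeq on GRCm38.p6, where 43 of the 54 subunit genes had an entry. The 4 first sequences below are examples of genes with large differences and the 4 last are examples of genes near or below 0. Each runs 5' to 3' on the gene's strand, with 60 bases before the annotated start and 20 from it, so base 61 is the start. Capitals mark runs of at least 5 C or T within 10 bases before to 20 bases after the start. The intervals are chr10:23787190-23787269 (minus strand) for Rps12, chr17:33824543-33824622 (minus) for Rps28, chr11:97782420-97782499 (minus) for Rpl23, chr8:123102290-123102369 (plus) for Rpl13, chr4:86857348-86857427 (minus) for Rps6, chr7:4792905-4792984 (plus) for Rpl28, chr17:27635225-27635304 (minus) for Rps10 and chr11:101442185-101442264 (plus) for Rpl27.
Rps12: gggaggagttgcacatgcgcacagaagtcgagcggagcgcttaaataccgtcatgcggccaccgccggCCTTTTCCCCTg
Rps28: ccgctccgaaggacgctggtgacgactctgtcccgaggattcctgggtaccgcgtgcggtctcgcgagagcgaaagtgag
Rpl23: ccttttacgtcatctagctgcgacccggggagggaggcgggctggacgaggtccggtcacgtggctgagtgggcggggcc
Rpl13: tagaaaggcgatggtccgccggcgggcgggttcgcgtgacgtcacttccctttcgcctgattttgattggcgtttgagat
Rps6: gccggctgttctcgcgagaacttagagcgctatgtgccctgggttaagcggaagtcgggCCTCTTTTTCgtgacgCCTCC
Rpl28: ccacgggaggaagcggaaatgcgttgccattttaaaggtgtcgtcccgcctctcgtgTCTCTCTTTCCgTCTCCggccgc
Rps10: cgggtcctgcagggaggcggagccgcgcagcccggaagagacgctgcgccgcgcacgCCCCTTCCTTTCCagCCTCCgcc
Rpl27: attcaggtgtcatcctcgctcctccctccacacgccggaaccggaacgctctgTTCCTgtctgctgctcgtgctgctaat

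Rps6, Rpl28 and Rps10, whose differences were near 0, had runs of 10, 11 and 13 pyrimidines across the annotated start. Of these, 9, 8 and 10 bases lay from the start onward. Rps12 began with A at the annotated start and had a run of 11 pyrimidines a few bases downstream, and Rpl23 began with G with no run of 5. Genes not printed went the other way. Rps21 and Rps18, with differences of 0.63 and 0.53, had runs of 7 and 11 across the start. Of these, 5 and 9 bases lay from the start onward. Rps15 and Rpl10, with differences of -0.07 and 0.08, began with G and had no run of 5. RefSeq starts can lie several bases from the start used in liver, which these arrays do not measure. At least 5 pyrimidines in a row, counted from the start onward, were annotated for 11 of the 43 genes (25.6%), against 4.36% of 27025 promoters. In these 11 genes the run also reached upstream of the start. The median difference was 0.19 for those 11 genes (range -0.07 to 0.63) and 0.27 for the 32 others (range -0.16 to 0.97), and this gap was not tested.

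Over the 300 bases of the table, from 250 before to 50 after the start and on both strands, the ETS-type motif CCGGAAG was present in 16 of the 43 genes (37.2%) and in 9.12% of all promoters. The palindrome CTCGCGAG, the core of a longer motif linked to ZBTB33 and chosen after matches to that motif had been seen, was present in 6 (14%) against 0.958%. Rps28 and Rps6, with very different values here, both held it, as did Rpl26, Rps19, Rpl27a and Rpl12. The YY1-type motif AAGATGGC was present in 1 (2.33%) against 2.88%, and TATAAA in 4 (9.3%) against 14.2%. CCGGAAG and AAGATGGC can share the letters AAG, and a match is a description of these letters and not of a bound site. Genes with CCGGAAG had a median difference of 0.19 and those without it 0.29.

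Other parts of the translation machinery were read in the same way. The 77 mitochondrial ribosomal protein genes, which serve a separate ribosome, had a median difference of 0.06. Of them 43 (55.8%) were higher, against 43.1% of all genes, and 6 had no overlap in that direction, against 1.81%. In that list, 12 were higher and 4 lower at an unadjusted limma p under 0.05, against 3.84% and 6.61% of all genes, and none passed after adjustment. Mrpl54 read 8.22 ± 0.21 in controls and 8.64 ± 0.08 in knockout-labelled livers (SD, n = 4), and Mrps21 read 10.47 ± 0.09 and 10.79 ± 0.14. Translation factor genes were taken by symbol, Eif or Eef followed by a number. These 61 genes also include some that regulate or modify the factors, such as Eif2ak1, Eef2k, Eef1akmt1 and Eif4ebp1. They had a median difference of 0.03, with 35 (57.4%) higher. At the unadjusted p 6 were higher and 2 lower, beside the same shares of all genes, and none passed the adjusted threshold. Eif6, which keeps large subunits from joining early, read 10.84 ± 0.19 against 11.29 ± 0.28. Eif3e, a subunit of an initiation factor and itself counted among TOP mRNAs, read 9.76 ± 0.20 against 10.20 ± 0.18. The gap between the cytosolic ribosomal protein genes and these lists was not tested, and control 1 was the highest and control 4 the lowest control in the mean of each.

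Of the other TOP mRNAs, 13 of the 15 listed were measured, 11 were higher and the median difference was 0.08. Tpt1, which encodes translationally controlled tumour protein, read 13.38, 13.23, 13.12 and 13.12 in controls and 13.39, 13.47, 13.48 and 13.46 in knockout-labelled livers, without overlap (difference 0.24, SE 0.07, limma adjusted p = 0.249). In that list 2 were higher and 1 lower at the unadjusted p, against 3.84% and 6.61% of all genes. Fau, the fusion precursor of ribosomal protein S30, differed by 0.07 (SE 0.07). Of the 5 paralogs measured that the symbol rule left out, 2 were higher and 3 lower, with a median difference of -0.05. The 2 higher were Rps27l and Rpl10l. Rps27l had a difference of 0.45 (SE 0.10, limma adjusted p = 0.143) without overlap. Rpl10l read 6.02 ± 0.20 in controls against 6.42 ± 0.38, with knockout 1 at 6.94 and the other knockout-labelled arrays at 6.12 to 6.47.

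Of 15 genes of mTOR complex 1 and its translational arm, 13 were measured, 6 were higher and the median difference was -0.04. Rheb, the GTPase that activates mTOR complex 1, read 10.39, 10.09, 10.01 and 9.98 in controls and 10.38, 10.48, 10.92 and 10.81 in knockout-labelled livers, with control 1 and knockout 1 nearly equal (difference 0.54, SE 0.13, limma adjusted p = 0.188). Rps6kb2, an S6 kinase, was lower without overlap (difference -0.26, SE 0.09, limma adjusted p = 0.316). Of 8 dedicated chaperones of ribosomal proteins, 4 were higher, among them Bccip (difference 0.34, SE 0.09, without overlap) and Aamp (0.28, SE 0.09). A list of 10 genes, Trp53 and p53 targets, was included because free ribosomal proteins can hold Mdm2. Of these 7 were measured, without Trp53, with 3 higher and a median of -0.03. None of these genes passed after adjustment.

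Markers of other liver cells were set beside the array order. The Kupffer cell list (8 of 8 measured, 7 higher, none past the threshold) averaged 8.998 to 9.72 in controls and 9.17 to 10.15 in knockout-labelled arrays. The B cell list (3 of 4 measured, none higher) averaged 5.98 to 6.68 and 5.9955 to 6.35. In both lists, and in the endothelial, stellate and neutrophil lists, control 1 was highest and control 4 lowest among controls, the same extremes as for the ribosomal protein genes. Other lists had other extremes: control 1 was the lowest and control 3 the highest control for cholangiocyte and erythroid markers, control 3 the lowest and control 2 the highest for T and NK cell markers, and control 3 the lowest and control 4 the highest for hepatocyte markers. Between genotypes the median differences were 0.10 for Kupffer, 0.01 for endothelial, -0.04 for stellate, -0.04 for neutrophil, -0.09 for T and NK, -0.27 for B cell, -0.21 for cholangiocyte and -0.03 for erythroid markers. The part of cell composition in the ribosomal protein differences was not tested.

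Which genes passed depended on the weights given to the arrays and on whether those numbered 1 were kept. When limma weighted the arrays by their estimated quality, 20 of the 56 genes passed as higher, against 1.31% of all genes, and Rps23rg1 passed as lower, against 2.23%. Rps12 then had an adjusted p of 0.00763 in limma. Without knockout 1, 16 of the 56 passed as higher, against 1.10% of all genes. Without control 1, 13 passed as higher, against 0.231%. Without both, a setting chosen after seeing the data, 28 passed as higher, against 2.39%. With equal weights, leaving out any other single array left none. Under all of the first 3 settings 11 genes passed, namely Rpl13, Rpl23, Rpl24, Rpl36, Rpl5, Rpl7, Rpl8, Rplp1, Rps12, Rps21 and Rps28. The matching share of all genes was not counted and cannot exceed the 0.231% that passed as higher without control 1. The settings reuse the same mice and are not separate tests. The median difference of the 56 genes ranged from 0.18 without control 4 to 0.34 without control 1.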

How the data were processed

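Liver RNA (100 ng per array) from 4 control and 4 knockout-labelled mice was measured on Affymetrix Mouse Gene 1.0 ST arrays. Deposited values came as a single table of probe sets by arrays, and the submitters' processing notes name RMA, Affymetrix Expression Console and Partek, with no version given. The authors' values lie in the range of RMA log2 signals, and the log2 base was inferred from that range. They were used as deposited, and no signal over background was given.

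Of 35556 probe sets, 21789 name 1 gene, 1621 name several and 12146 none; symbols came from the platform annotation and were updated through Entrez IDs to GRCm38.p6, with 21698 matched. The 21789 were fitted with limma 3.58.1 in R 4.3.3 (lmFit, eBayes with a mean-variance trend, equal weights), two-sided, with Benjamini-Hochberg adjustment over all of them and a threshold of 0.05. Each of 19938 genes was then read by its brightest probe set. Exact permutation tests used all 70 splits of the 8 arrays. The same code was tested on simulated data.

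Named genes were the 8 higher members and the 5 lower members with the smallest p, the 3 brightest and 3 dimmest, Rps6, Rplp0 and Rpl22, members with probe sets of opposite sign, and the pair with the smallest p in each translation list. Other names were chosen after seeing values. The members and all 17 lists were chosen with earlier results of these data known. In 17 alternatives the weights, scaling, filter, variance trend, choice of probe set, block and left-out arrays were varied. A description by protein length was planned and not run. The labels name 4 mice per group and no shared litter, batch or day, so p-values measure the spread between these mice, and their number limits the precision.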

Additional observations from a re-analysis of the deposited data

Results flagged for a closer look

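Of 44 groups of 4 arrays examined for a single array far from the rest, 1 stood out. For Rps10, a small subunit protein at the mRNA entry side, knockout 1 read 12.65, while the other knockout-labelled arrays read 12.18 to 12.26. The gap between knockout 1 and the nearest of them made up 0.8298 of the group's whole range, just past Dixon's critical value at the 95% level. Chance flags about 1 in 20 such groups.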

How the results depend on the processing

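The number of genes past the threshold depended on the array weights and on whether the arrays numbered 1 were kept. Over all genes 0 passed with equal weights, 707 with array weights, 1489 without both arrays numbered 1 and 0 to 877 when single arrays were left out (59 without control 1, 877 without knockout 1). Among the 56 ribosomal protein genes these counts were 0, 21, 28 and 0 to 16 (13 and 16 for the same arrays). The cause was not tested. The median difference of the 56 genes was 0.18 to 0.34 when single arrays were left out, 0.38 without both arrays numbered 1 and 0.28 after quantile normalisation or median centring, so its direction was the same in each. Under the scalings the median of all genes moved by less than 0.1. Under at least 1 alternative the sign turned for 12 of the 56 genes. All of these differed by less than 0.1 with equal weights except Rpl27 and Rpl12, which had a difference of 0.13, and of -0.031 without control 1. Leaving out single arrays gave -0.14 to 0.011 for Rps15, -0.18 to 0.019 for Rps10 and -0.048 to 0.024 for Rps6. Rps6 read 0.0054 after median centring, and Rpl27 read 0.054 by its dimmest probe set.

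Arrays with the same replicate number did not deviate together, with correlations of -0.093, -0.125, -0.04 and 0.0738, and the numbers were not taken as pairs. With the replicate number as a block, 0 genes and 0 members passed in limma (lowest adjusted p of a member 0.308), and the median difference stayed 0.27. The description by protein length was not run, since no protein table was used here.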
